A study of Mus musculus with 12 samples.

Results

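Interferon-stimulated genes are the genes that a cell switches on after it has sensed interferon, and 9 of them were followed here in mouse hippocampus: Ifit1, Ifit3, Irf7, Isg15, Oasl2, Usp18, Bst2, Rsad2 and Ifi44. They were chosen by name with earlier results of these data known, so counts over them are descriptions. All 9 were found among the 23329 gene symbols of the files. The estimated transcript counts were summed per gene in each library. The libraries were made from polyadenylated RNA of hippocampi of adult C57BL/6 mice and fall into 4 groups of 3, namely NONO KO at CT22, NONO KO at CT10, WT at CT22 and WT at CT10, 12 libraries in all. KO mice lack NONO, a protein of the nucleus that binds both RNA and DNA, and WT mice carry it. The labels describe neither the KO allele nor the meaning of CT. They name no treatment and do not state whether libraries of the same group stem from different mice, so a p-value here reflects the variation among the libraries at hand, which may be technical.

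Interferons are secreted after pattern-recognition receptors detect foreign or misplaced nucleic acid. They bind receptors that work through the JAK kinases, and these activate transcription factors in the nucleus. A DNA element called the ISRE, near the start of many targets, serves the response to type I interferon, and the GAS element that to interferon-gamma. In the brain, microglia, endothelial cells, astrocytes and neurons all can express these genes, and their baseline level without infection is low.

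The ISRE letters were searched in the 250 bases before the RefSeq start of each gene (build GRCm38.p6), because they show which of the 9 genes carry the element beside their start. The letters GAAANNGAAA, on either strand, were present in 5 of the 8 genes for which a window was at hand, namely Ifit1, Ifit3, Isg15, Bst2 and Rsad2. For comparison, 978 of 32851 windows of the same length, 2.98%, held these letters. For Bst2 and Ifi44 that start differs from the start of the transcript whose position is given with the levels, and distances are counted from the end of the window. The windows of these 5 genes are printed 5′ to 3′ in the direction of transcription, with the bases covered by a match in capitals.
Ifit1 (chr19:34640639-34640888, plus strand): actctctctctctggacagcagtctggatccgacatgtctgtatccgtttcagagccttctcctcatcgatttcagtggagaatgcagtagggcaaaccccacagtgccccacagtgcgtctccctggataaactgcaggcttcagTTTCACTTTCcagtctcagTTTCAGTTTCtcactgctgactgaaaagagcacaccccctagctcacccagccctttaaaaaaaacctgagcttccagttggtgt
Ifit3 (chr19:34583279-34583528, plus strand): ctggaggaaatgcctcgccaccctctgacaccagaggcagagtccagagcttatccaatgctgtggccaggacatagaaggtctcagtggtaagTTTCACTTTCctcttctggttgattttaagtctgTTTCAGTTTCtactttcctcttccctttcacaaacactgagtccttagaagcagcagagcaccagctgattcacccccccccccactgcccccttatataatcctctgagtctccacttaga
Isg15 (chr4:156200819-156201068, minus strand): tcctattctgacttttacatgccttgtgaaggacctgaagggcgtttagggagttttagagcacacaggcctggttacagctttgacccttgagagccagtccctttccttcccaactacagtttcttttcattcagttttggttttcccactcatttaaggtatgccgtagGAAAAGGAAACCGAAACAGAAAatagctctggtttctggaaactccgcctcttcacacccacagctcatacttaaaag
Bst2 (chr8:71537473-71537722, minus strand): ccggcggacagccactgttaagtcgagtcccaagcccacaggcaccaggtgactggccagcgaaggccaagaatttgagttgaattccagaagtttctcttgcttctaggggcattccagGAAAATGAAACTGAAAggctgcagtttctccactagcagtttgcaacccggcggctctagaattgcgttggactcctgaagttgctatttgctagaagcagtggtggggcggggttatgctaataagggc
Rsad2 (chr12:26456453-26456702, minus strand): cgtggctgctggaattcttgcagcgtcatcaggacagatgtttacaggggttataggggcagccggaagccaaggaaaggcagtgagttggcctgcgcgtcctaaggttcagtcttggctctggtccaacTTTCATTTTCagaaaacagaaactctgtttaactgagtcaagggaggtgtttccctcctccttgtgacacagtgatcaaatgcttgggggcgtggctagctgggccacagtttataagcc
Ifit1 and Ifit3 lie near each other on chromosome 19 and each held the same pair of matches in the reverse orientation, TTTCACTTTC and TTTCAGTTTC. In Ifit1 these ended 95 and 76 bases before the start, and in Ifit3 147 and 113 bases before it. Isg15 held 3 matches that overlap one another, from 78 to 57 bases before the start. Bst2 held 2 overlapping matches, from 130 to 115 bases before the start, and Rsad2 held 1, from 120 to 111 bases before it. The GAS letters TTCNNNGAA were found in 1 of the 8 windows, that of Bst2, where they overlap an ISRE match, against 7.02% of all windows. The windows of Irf7, Oasl2 and Ifi44 held neither set of letters, and Usp18 was not searched. A match of letters is not a measured binding site, and the absence of a match says only that the letters are not in these 250 bases.

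The labels were checked with the targeted gene. Nono was read at 0 to 0.672 CPM in the 6 KO libraries, against 150 to 169 CPM in the 6 WT libraries. CPM are counts brought to the same library total, with TMM factors that match the libraries on their typical gene. The smallest library, KO CT22 replicate 2, had 4435606 counts and the largest, WT CT22 replicate 3, had 10911046. All 12 markers of hippocampal neurons were measured, with a summed level of 779 to 1235 CPM per library. The lymphocyte markers summed to at most 3.14 CPM in any library, and Cd3g was at 0 in all 12. Of the 23329 genes, 14131 passed the filter on low counts and were tested. The filter passed 8 of the 9 interferon-stimulated genes, and Ifi44 was left out.

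KO CT10 replicate 1 stood apart from the other 11 libraries in these genes. It was the highest library for all 9, whereas it was the highest for 6.9% of all tested genes. For 7 of the 8 tested members, all but Isg15, it exceeded every other library at least 1.5-fold, against 0.177% of all tested genes. That share was not matched to the members for level, and counting error is larger for genes of low count. The summed level of the 9 members was 72.8 CPM there and 19.3 to 29.5 CPM in the other 11 libraries. The fitted changes of the members are therefore given with and without it.

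All 9 genes were expressed at a low level, and their order was read from TPM, which divides by transcript length. Over the 6 WT libraries Bst2 averaged 11.7 ± 2.20 TPM and Ifit3 9.59 ± 2.19 TPM (SD, n = 6). Isg15 followed at 5.18 ± 1.58 TPM, Irf7 at 3.68 ± 1.69 TPM and Oasl2 at 3.21 ± 0.357 TPM. Ifit1 averaged 2.36 ± 0.581 TPM, Usp18 1.40 ± 0.497 TPM, Rsad2 0.877 ± 0.236 TPM and Ifi44 0.697 ± 0.162 TPM. Each gene's range over the 6 WT libraries overlapped that of its neighbour in this order, so only genes farther apart in the order were separated. In KO CT10 replicate 1 the highest were Ifit3 at 29.7 TPM and Bst2 at 27.8 TPM, and the lowest was Ifi44 at 1.81 TPM. The rounded counts behind these levels ran from 1, for Ifi44 in KO CT22 replicate 2, to 200, for Ifit3 in KO CT10 replicate 1, so counting error is large for the lowest genes.

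Ifit1 and Ifit3 encode tetratricopeptide proteins that act against viral RNA and its translation. Ifit1 (chromosome 19, 34640889 to 34650009 in mm10, plus strand, 2 exons) was read at 3.71, 1.79 and 2.78 CPM in the KO CT22 libraries and at 9.41, 2.73 and 2.21 CPM in the KO CT10 libraries, against 2.10, 3.29 and 1.83 CPM in WT at CT22 and 2.94, 2.81 and 1.91 CPM in WT at CT10 (replicates 1 to 3). KO CT10 replicate 1 was high, and the other 5 KO libraries overlapped the WT libraries. Its 95% exact Poisson interval of 7.49 to 11.7 CPM lay above the intervals of all other libraries, which reached 5.09 CPM at most. The same separation held for 4 of the 9 members, namely Ifit1, Ifit3, Irf7 and Oasl2. For Isg15, Usp18, Bst2, Rsad2 and Ifi44 the interval in KO CT10 replicate 1 overlapped that of another library. These intervals describe counting error alone, as no molecular identifiers were used. In edgeR's quasi-likelihood test Ifit1 changed by 0.59 on the log2 scale in KO over both CT labels (SE 0.35, adjusted p = 0.815), with a 95% interval of -0.17 to 1.35, and by 0.10 without KO CT10 replicate 1 (SE 0.25). Ifit3 (chromosome 19, 34583529 to 34588982, plus strand, 2 exons) was the most abundant of the 9 in CPM. It was read at 8.92, 4.48 and 6.77 CPM in KO at CT22 and at 22.7, 10.1 and 6.53 CPM in KO at CT10, against 4.40, 6.48 and 8.43 CPM in WT at CT22 and 9.20, 8.54 and 8.52 CPM in WT at CT10. The genotypes overlapped, with KO CT10 replicate 1 far above the rest and KO CT10 replicate 2 second. The log2 change of Ifit3 was 0.35 (SE 0.29, edgeR adjusted p = 0.863), and 0.01 without KO CT10 replicate 1 (SE 0.20). Reads of Ifit3 can be shared with its near copy Ifit3b, listed in the files as I830012O16Rik. Transcript sequences were taken from the GENCODE annotation, where Ifit3 has 1745 bases, whereas the files list it at 1998 bases. In that sequence 521 of the 1646 windows of 100 bases, 31.65%, also occur in Ifit3b. The division of reads between these copies is therefore uncertain. Ifit3b had the same profile, with 10.9 CPM in KO CT10 replicate 1 and 2.70 to 5.81 CPM in the other 11 libraries. For Ifit1 3.285% of the windows were shared, with Ifit1bl2, and for the other 7 genes 0.

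Irf7 is the transcription factor that amplifies interferon production. Irf7 (chromosome 7, 141263183 to 141266424, minus strand) was read at 3.31, 2.47 and 2.42 CPM in KO at CT22 and at 9.18, 3.79 and 3.15 CPM in KO at CT10, against 1.80, 2.74 and 2.84 CPM in WT at CT22 and 2.68, 4.69 and 1.18 CPM in WT at CT10. Only KO CT10 replicate 1 stood outside the WT range, and WT at CT10 was itself widely spread. The log2 change was 0.53 (SE 0.33, edgeR adjusted p = 0.817), and 0.20 without KO CT10 replicate 1 (SE 0.29). The files list 3 Irf7 transcripts, of 1859, 1763 and 1766 bases. The transcript of 1859 bases took a median share of 77.8% of the Irf7 counts, with a range of 25.7% to 100% over the 12 libraries, and that of 1763 bases took 19.6% (0% to 74.3%). The third was at 0 in 9 libraries and reached its highest share, 22.3%, in KO CT10 replicate 1. With 8 to 81 counts per library, these shares are estimates from few reads.

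Isg15 and Usp18 form a pair: ISG15 is a ubiquitin-like protein that is attached to other proteins, and USP18 removes it and also restrains the interferon receptor. Isg15 (chromosome 4, 156199424 to 156200818, minus strand, 2 exons) was read at 1.80, 2.24 and 1.81 CPM in KO at CT22 and at 2.95, 0.757 and 1.40 CPM in KO at CT10, against 1.00, 1.54 and 1.01 CPM in WT at CT22 and 1.53, 1.46 and 2.20 CPM in WT at CT10. At CT22 all 3 KO libraries lay above all 3 WT libraries, which was so for 7.25% of all tested genes. At CT10 KO held both the highest and the lowest library of the 12. The fitted log2 change was 0.70 at CT22 (SE 0.42, edgeR adjusted p = 0.546) and 0.04 at CT10 (SE 0.41, edgeR adjusted p = 1.00). Without KO CT10 replicate 1 the value at CT10 became -0.62. Usp18 (chromosome 6, 121245906 to 121270917, plus strand, 11 exons) was read at 1.00, 1.12 and 2.05 CPM in KO at CT22 and at 3.29, 1.36 and 0.932 CPM in KO at CT10, against 1.201, 1.10 and 0.642 CPM in WT at CT22 and 0.511, 1.35 and 1.03 CPM in WT at CT10. It had the largest fitted log2 change of the 8 over both CT labels, 0.73 (SE 0.37, edgeR adjusted p = 0.792), and the genotypes overlapped. With 4 to 29 counts per library, its 95% interval ran from -0.05 to 1.51. Without KO CT10 replicate 1 the change of Usp18 was 0.36 (SE 0.35).

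Oasl2, Bst2, Rsad2 and Ifi44 are effectors. Oasl2 belongs to the oligoadenylate synthetase family of double-stranded RNA sensors, Bst2 encodes tetherin, which holds budding virus at the cell surface, and Rsad2 encodes viperin, an enzyme that makes a chain-terminating nucleotide. Oasl2 (chromosome 5, 114896934 to 114912245, plus strand, 6 exons) was read at 4.21, 4.48 and 4.71 CPM in KO at CT22 and at 11.3, 4.39 and 4.08 CPM in KO at CT10, against 3.30, 4.50 and 4.22 CPM in WT at CT22 and 3.83, 4.58 and 3.82 CPM in WT at CT10. Outside KO CT10 replicate 1 it was the steadiest of the tested members, at 4.37 ± 0.245 CPM in the other 5 KO libraries and 4.04 ± 0.484 CPM in the 6 WT libraries (SD). Its log2 change over both CT labels was 0.43 with all libraries (SE 0.23, edgeR adjusted p = 0.802) and 0.10 without KO CT10 replicate 1 (SE 0.16). The near relative Oasl1 did not pass the filter and was read at 0.303 to 0.680 CPM in KO and 0.128 to 0.5002 CPM in WT.

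Bst2 (chromosome 8, 71534262 to 71537437, minus strand, 5 exons) was read at 3.51, 4.93 and 4.11 CPM in KO at CT22 and at 7.71, 3.48 and 4.20 CPM in KO at CT10, against 2.70, 3.07 and 3.67 CPM in WT at CT22 and 3.58, 2.71 and 4.41 CPM in WT at CT10. The genotypes overlapped, although the median KO library, at 4.15 CPM, lay above the median WT library, at 3.33 CPM. Its log2 change of 0.47 (SE 0.21) had the smallest p of the 8 over both CT labels, with an unadjusted p of 0.0454 and an adjusted p of 0.773 in edgeR's test. Without KO CT10 replicate 1 the change of Bst2 was 0.25 (SE 0.19), with an unadjusted p of 0.202 and an adjusted p of 1.00 in edgeR's test. Rsad2 (chromosome 12, 26442743 to 26456452, minus strand, 6 exons) was read at 1.10, 1.34 and 1.81 CPM in KO at CT22 and at 4.19, 1.82 and 0.932 CPM in KO at CT10, against 1.80, 1.65 and 1.37 CPM in WT at CT22 and 1.15, 1.15 and 0.881 CPM in WT at CT10. It was the sole tested member with opposite fitted signs at the 2 CT labels, with a log2 change of -0.18 at CT22 (SE 0.46) and 1.12 at CT10 (SE 0.47). The difference between these changes, CT22 minus CT10, was -1.30 (SE 0.66, edgeR adjusted p = 0.737), and it was -0.51 without KO CT10 replicate 1, when the change at CT10 was 0.33.

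Ifi44 (chromosome 3, 151730923 to 151749959, minus strand, 8 exons) had 1 to 18 counts per library. It was read at 0.301, 0.224 and 1.21 CPM in KO at CT22 and at 2.04, 1.06 and 0.466 CPM in KO at CT10, against 1.00, 0.768 and 0.642 CPM in WT at CT22 and 0.767, 0.625 and 1.03 CPM in WT at CT10. KO libraries lay on both sides of the WT range. The mean was 0.883 ± 0.696 CPM in KO and 0.805 ± 0.173 CPM in WT (SD, n = 6 each), a difference of 0.0782 CPM, with p = 0.82 in a two-sided exact permutation test of genotype.

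**Figure D1:**
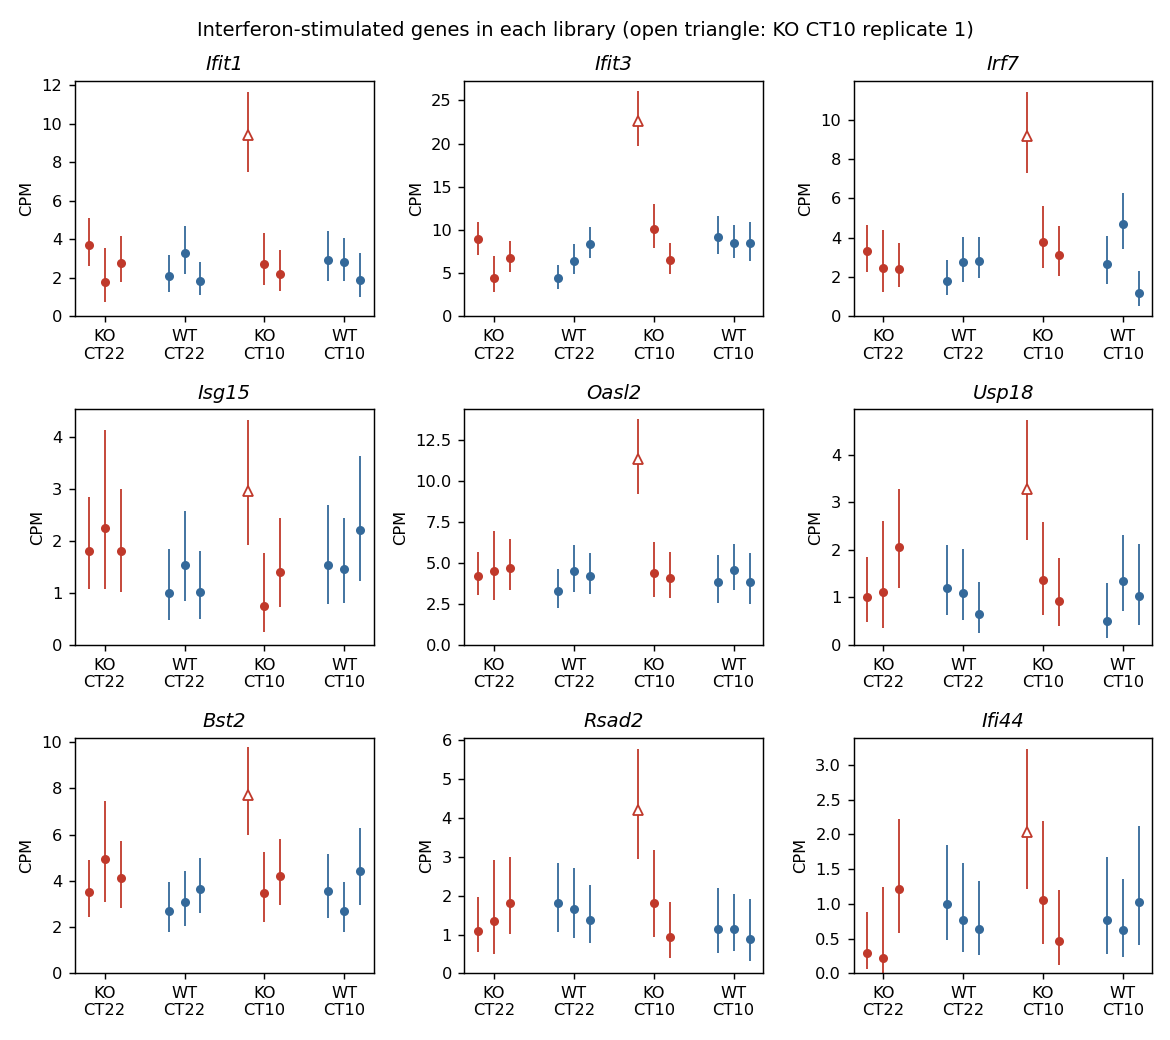
Level of each of the 9 genes in every library, in CPM on linear axes from 0, with red for KO and blue for WT. Points are single libraries, replicates 1 to 3 from left to right, bars are 95% exact Poisson intervals of the count, and the open triangle marks KO CT10 replicate 1, which is the highest of the 12 libraries in all 9 panels.

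No member passed the threshold of 0.05 in edgeR's quasi-likelihood test with Benjamini-Hochberg adjustment over all 14131 genes. Over both CT labels 0 of the 8 tested members were called, and 3 genes, 0.0212%, were called among all genes tested. The fitted log2 change was above 0 for 8 of 8 members, with a median of 0.47 and a range of 0.35 to 0.73, while 51.8% of all tested genes had a value above 0 and their median was 0.01. Bst2 alone had an unadjusted p under 0.05, which 6.35% of all tested genes had, and with the replicate block, or without KO CT10 replicate 1, 0 members had one. This count hung on single libraries. Without KO CT10 replicate 3, 6 of the 8 had an unadjusted p under 0.05 in edgeR's test, with 0 called. Without KO CT10 replicate 2 the count was 2, again with 0 called. Between the 6 KO and the 6 WT libraries 0 members were separated without overlap, against 0.184% of all tested genes higher and 0.262% lower. DESeq2 called 0 of the 8 as well, against 22 genes, 0.156%, of all. The authors' deposited table of KO over WT gives the 9 genes log2 ratios of 0.1807 to 0.7433, all positive. By its adjusted p-values, the authors' deposited table calls 0 of the 9, the lowest being 0.8134 for Bst2, and 28 of 15093 genes. Without KO CT10 replicate 1, the edgeR median over the 8 members became 0.10, with a range of 0.01 to 0.36 and 0 called, and 1 gene, 0.00702%, was called among 14246 tested.

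At CT22, 0 of the 8 members were called, against 2 genes, 0.0142%, of all tested. Their median log2 change was 0.22, 7 of 8 were above 0, and edgeR's adjusted p ran from 0.546 to 0.939. None had an unadjusted p under 0.05, while 10.9% of all tested genes did, and 50.6% of all tested genes were above 0. Isg15 was the sole member separated without overlap, and 6.49% of all tested genes were lower in KO without overlap. At CT10 again 0 of the 8 were called, against 1 gene, 0.00708%, of all tested. The median log2 change there was 0.79, 8 of 8 were above 0, and 51.5% of all tested genes were. Oasl2 and Rsad2 had an unadjusted p under 0.05 (0.0484 and 0.0293 in edgeR's test), which 3.09% of all tested genes had, and the adjusted p was 1.00 for all 8. Between the 3 KO and the 3 WT libraries at CT10, 0 of the 8 were separated without overlap, against 4.9% of all tested genes higher and 5.43% lower. Leaving out KO CT10 replicate 1, the median at CT10 became 0.09 with 5 above and 3 below 0, and 0 members had an unadjusted p under 0.05. The median at CT22 was then 0.21. Both comparisons had 0 members called in that fit, in which 0.00702% of genes were called in each. Without KO CT10 replicate 3, 6 of the 8 had an unadjusted p under 0.05 at CT10 in edgeR's test. Without KO CT10 replicate 2 the count at CT10 was 5, and 0 were called in either fit.

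**Figure D2:**
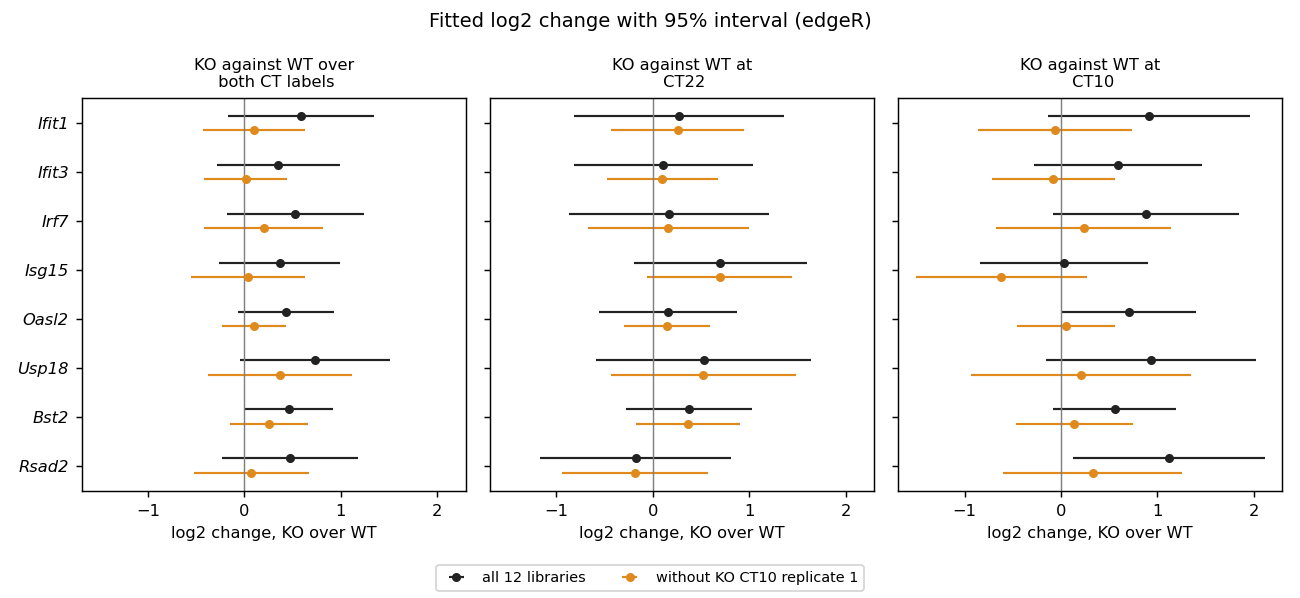
Fitted log2 change of the 8 tested members, KO over WT, in edgeR over both CT labels, at CT22 and at CT10, with 95% intervals; black is the fit of all 12 libraries and orange the fit without KO CT10 replicate 1. At CT10 the median is 0.79 with that library and 0.09 without it, whereas at CT22 it is 0.22 and 0.21.

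The change with genotype was compared between the CT labels by the difference of the log2 changes, CT22 minus CT10. No gene was called, so the background was 0.0% and 0 of the 8 members passed. The median difference over the members was -0.51, with 1 of 8 above 0, that of Isg15 at 0.67 (SE 0.59, edgeR adjusted p = 0.778), while 49.9% of all tested genes were above 0. No member had an unadjusted p under 0.05, which 6.09% of all tested genes had. When KO CT10 replicate 1 was left out, the median difference became 0.21, with 6 of 8 above 0 and 0 called. Isg15 then had the largest difference, 1.31 (SE 0.54), with an unadjusted p of 0.0298 and an adjusted p of 0.51 in edgeR's test.

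CT22 was also set against CT10 within each genotype. In KO the background was 0.0% and 0 members were called. The median log2 change in KO was -0.65, with 1 of 8 above 0 against 50.1% of all tested genes, and Ifit3 was at -0.92 (SE 0.41, edgeR unadjusted p = 0.0456, adjusted p = 0.977). An unadjusted p under 0.05 was found for 3.16% of all tested genes, and 0 members were separated without overlap, against 4.3% of all tested genes higher and 3.66% lower. The median in KO without KO CT10 replicate 1 was 0.08. In WT, where that library plays no part in the group means, the background was likewise 0.0%, 0 members were called, and the median was -0.13, or 0.02 without WT CT10 replicate 2. In WT 1 of 8 was above 0, against 50.0% of all tested genes, and 0 had an unadjusted p under 0.05, against 6.76%. Rsad2 was higher in WT at CT22 than in WT at CT10 without overlap, as were 7.69% of all tested genes, and Ifit3 was lower without overlap, as were 8.54%. Neither was called (edgeR adjusted p = 0.78 for Rsad2 and 0.808 for Ifit3). DESeq2 called 0 members in KO, at a background of 0.0%, and 0 in WT, where it called 0.0283% of all tested genes.

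The 9 genes were then followed across the libraries. The 28 pairs of tested members had Pearson correlations of 0.19 to 0.87 over the 12 libraries, with a median of 0.61. Over the 11 libraries without KO CT10 replicate 1 the range was -0.49 to 0.57 and the median 0.12, with 17 of 28 above 0. The points share their library, and the counts are low, so these values describe the libraries and carry no test. Of the 13075 genes with a mean of at least 2 CPM, the most like the mean log2 CPM of the 8 tested members over the 12 libraries was H2-D1, a class I antigen-presenting chain, with r = 0.94. It was read at 61.5 CPM in KO CT10 replicate 1 and 34.9 to 44.6 CPM in the other 11, and r was 0.73 over those 11. Ifit3b (0.84), the class I chain H2-K1 (0.82), the secreted protein Lgals3bp (0.80), the guanylate-binding GTPase Gbp2 (0.79) and Ddx58, which encodes the RNA sensor RIG-I (0.79), came next. The remaining genes of the first 10 were Pltp, Phc1, Tatdn1 and Zfp451, with r between 0.78 and 0.79. The order rested on KO CT10 replicate 1: over the other 11 libraries r was 0.48 for Ifit3b, 0.54 for H2-K1, 0.35 for Lgals3bp, 0.55 for Gbp2, 0.50 for Ddx58 and 0.36 for Pltp, while Zfp451, with 0.79, was above H2-D1. Leaving out the 2 libraries farthest from the median of the member score, KO CT10 replicate 1 and WT CT22 replicate 1, gave r = 0.61 for H2-D1.

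Other genes of the pathway were taken from lists. Of 39 further interferon-stimulated genes, 36 were matched and 27 tested. None was called over both CT labels, against 0.0212% of all tested genes. In KO over both CT labels 22 of 27 had a log2 change above 0, against 51.8% of all tested genes, and the median was 0.16. KO CT10 replicate 1 was the highest library for 16 of the 27, against 6.9% of all tested genes. Among its most abundant genes, Adar, Znfx1 and Cmpk2 were not highest there, and Lgals3bp was. The RNA-editing enzyme Adar was read at 204 CPM there and 192 to 238 CPM in the other 11, the helicase-like Znfx1 at 56.0 and 54.2 to 70.6 CPM, and the mitochondrial kinase Cmpk2 at 18.8 and 14.8 to 22.6 CPM. Lgals3bp was at 37.1 CPM there and 15.9 to 29.2 CPM elsewhere. Without KO CT10 replicate 1, 19 of 27 were above 0 and the median was 0.08.

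Among antigen presentation genes and interferon-gamma targets, KO CT10 replicate 1 was the highest library for 10 of the 19 tested, against 6.9% of all tested genes. Over both CT labels 0 of these 19 genes were called, against 0.0212% of all tested genes. A log2 change above 0 was found for 15 of them, against 51.8% of all tested genes, and the median was 0.10. B2m, the shared light chain of class I molecules, was read at 85.2 CPM there and 54.6 to 74.6 CPM in the other 11 libraries, and H2-K1 at 40.8 and 22.4 to 33.8 CPM. The proteasome activator Psme1 was at 34.0 CPM there and inside the range of the others, 24.9 to 39.8 CPM. Without KO CT10 replicate 1, 10 of 19 were above 0 and the median was 0.04.

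The upstream steps gave no call. All 10 interferon ligands listed were found; 9, among them Ifnb1, Ifna4 and Ifng, were at 0 in all 12 libraries, which allows up to 0.275 to 0.676 CPM per library (3 counts), and Ifne was read in 1 library. Of the 12 receptor and signalling genes tested, 7 were above 0 with a median of 0.01, and KO CT10 replicate 1 was highest for 2. Of all tested genes 51.8% were above 0 over both CT labels, and 6.9% were highest in that library. Jak1 averaged 210 ± 6.39 CPM in KO and 199 ± 14.5 CPM in WT, Ifngr2 66.4 ± 3.04 CPM in KO and 69.1 ± 4.25 CPM in WT, and Ifnar1 58.7 ± 4.996 CPM in KO and 58.3 ± 6.30 CPM in WT (SD, n = 6 each). Of 12 nucleic acid sensing genes tested, 5 were above 0 with a median of -0.02. Among these the adaptor Traf3 averaged 125 ± 8.98 CPM in KO and 124 ± 14.3 CPM in WT, and the kinase Tbk1 50.6 ± 1.96 CPM in KO and 52.0 ± 4.88 CPM in WT. Of 11 tested genes that restrain the response, 9 were above 0 with a median of 0.08, and the phosphatase Ptpn11 averaged 236 ± 9.12 CPM in KO and 238 ± 18.9 CPM in WT. Pias1 of the same list averaged 49.0 ± 4.36 CPM in KO and 49.0 ± 3.87 CPM in WT. None of the genes of these lists was called over both CT labels, against 0.0212% of all tested genes.

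**Figure D3:**
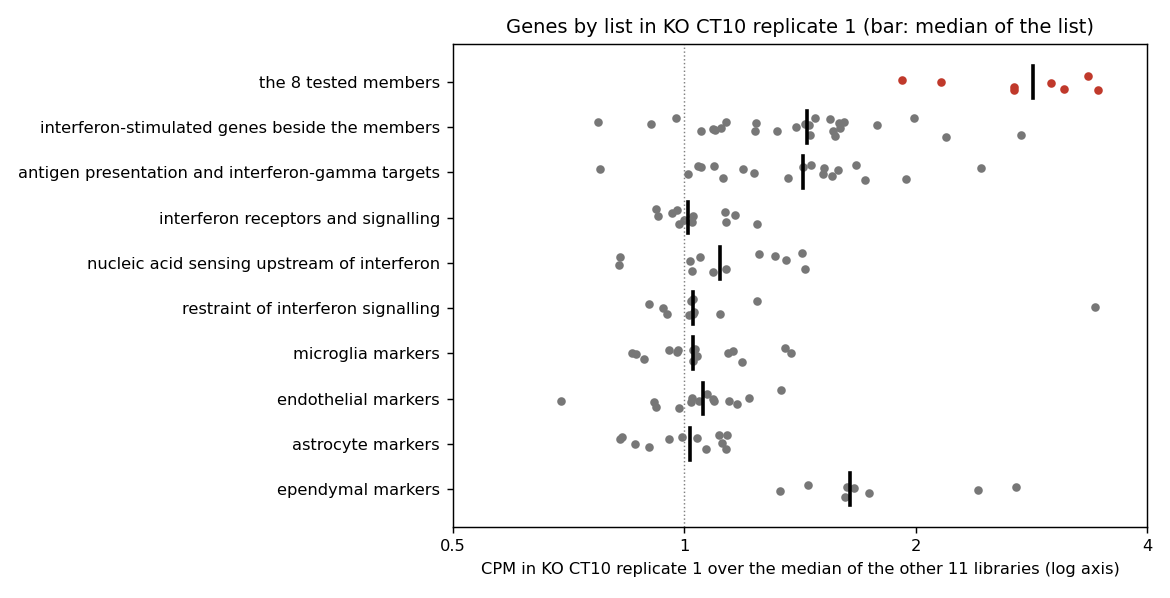
Level in KO CT10 replicate 1 divided by the median of the other 11 libraries, on a log axis, for tested genes with a mean of at least 1 CPM; each point is a gene, rows are lists, and black bars are list medians. The 8 tested members lie between 1.92 and 3.45, while receptor and signalling genes lie around 1.

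Markers of other cell types were read beside these values, because bulk tissue cannot tell more cells of a type from more RNA per cell. Choroid plexus markers summed to 4890.4 CPM in KO CT10 replicate 1. Their highest sum was 5325 CPM in KO CT22 replicate 3, a library in which the 9 members summed to 27.7 CPM. Blood markers summed to 852 CPM in KO CT10 replicate 1, which was the highest, and to 746 CPM in KO CT10 replicate 2, where the members summed to 29.5 CPM. Of the 6 tested blood markers 4 were highest in KO CT10 replicate 1, against 6.9% of all tested genes. Ependymal markers summed to 173 CPM in KO CT10 replicate 1, against at most 135 CPM in the other 11. Of the 8 ependymal markers 7 were highest there, against the same 6.9%. The part of these 3 marker lists in the member values was not tested. Microglia markers, at 619 CPM, lay inside the range of the other libraries, 543 to 688 CPM, and KO CT10 replicate 1 was the highest library for 0 of the 15. Endothelial markers, at 566 CPM, also lay below the highest of the others, 581 CPM. Monocyte and neutrophil markers summed to 89.9 CPM there and to as much as 133 CPM elsewhere. Most of that sum was Fn1, at 78.7 CPM there and 47.7 to 126 CPM in the other 11 libraries. The sum therefore says little about the rarer markers. Of the 11 listed, 2 were tested, Fn1 and Lyz2, and neither was highest there. Among the markers not tested only Ly6c2 was, at 0.227 CPM against at most 0.147 CPM. Lymphocyte markers summed to 1.25 CPM there, namely Cd4 at 0.567, Cd79a at 0.340, Cd79b at 0.227 and Gzma at 0.113 CPM. The other lymphocyte markers were at 0 there.

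Over the groups, the same markers ran as follows. The choroid plexus sum was 233 to 5325 CPM in KO and 340 to 2186 CPM in WT, with 14 of 14 markers above 0 in log2 change and a median of 1.31, and with 13 of 14 above 0 and a median of 0.37 without KO CT10 replicate 1. The meningeal and fibroblast sum was 197 to 700 CPM in KO and 132 to 435 CPM in WT, with 13 of 14 above 0 and a median of 0.61. The blood sum was 245 to 852 CPM in KO and 192 to 394 CPM in WT. None of these markers was called in edgeR's test over both CT labels, against 0.0212% of all tested genes. Of the 15 microglia markers 2 were above 0, with a median of -0.10. Of all tested genes 51.8% were above 0.

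**Figure D4:**
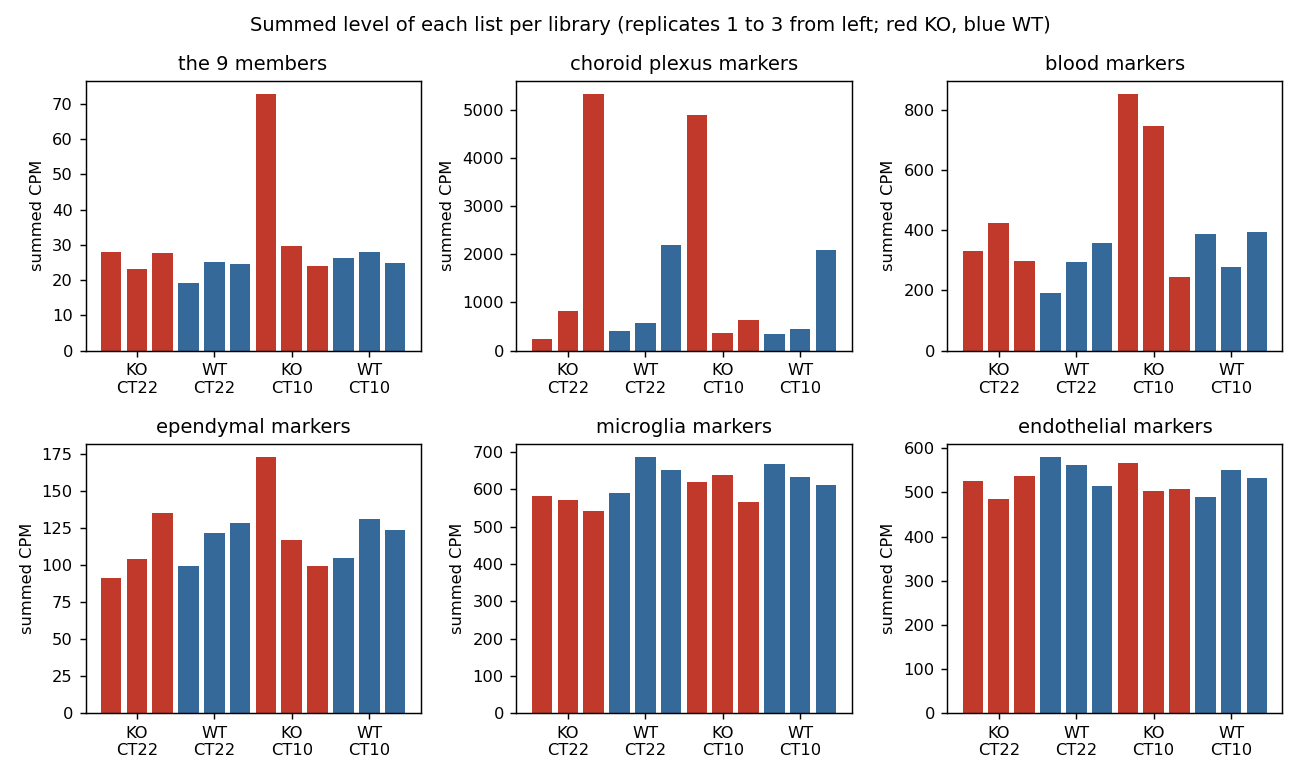
Summed CPM per library of the 9 members and of 5 marker lists, as bars from 0, with red for KO and blue for WT and replicates 1 to 3 from left to right in each group. The members stand at 72.8 CPM in KO CT10 replicate 1 and at 29.5 CPM or less elsewhere, while the choroid plexus bar is highest in KO CT22 replicate 3.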

How the data were processed

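Polyadenylated RNA was sequenced on an Illumina instrument from stranded libraries, as paired-end or single-end reads, per the labels' protocols. The submitters' processing notes name RSEM 1.2.5, TopHat 1.3.3, edgeR 3.0.6 and FastQC, and the mouse build mm10. Per the file headers, each library's deposited file gives estimated counts and TPM per transcript. A table of KO over WT that the authors deposited gives log2 ratios, p-values, adjusted p-values and a normalised signal per library, the last not used here. The use of strand in the authors' counting was not given in the sources used here.

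Groups and replicate numbers came from the sample titles. Estimated counts were summed per gene symbol and rounded. In R 4.3.3, edgeR 4.0.16 (filterByExpr with a minimum count of 10, TMM factors of 0.979 to 1.021, robust quasi-likelihood fit of 4 group means, 8 residual degrees of freedom, coefficient of variation 12.3%) tested 14131 genes, with Benjamini-Hochberg adjustment and a threshold of 0.05. Intervals are at 95%. The SE of an edgeR log2 change was derived from its test, as the size of the change divided by the square root of F. The interval of the change was built from that SE and a t quantile. A count of 0 was kept as 0 in the fits and levels, and 3 counts were quoted as the most that it allows. Library totals of 4435606 to 10911046 counts set the precision. The procedure was tested on simulated data.

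Alternatives were DESeq2 1.42.0, RLE size factors, no filter, only the libraries compared, a replicate block, and leaving out each library. Named genes were the 9 members, Nono, Ifit3b, Oasl1, 2 to 4 of the most abundant genes per interferon list, and the 10 genes most alike by Pearson r. Further genes were picked with their values in view. The members and lists were chosen with earlier results of these data known, so counts over them are descriptions and carry no p.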

Additional observations from a re-analysis of the deposited data

Results flagged for a closer look

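Among the 6 KO libraries, KO CT10 replicate 1 was far enough from the others to be marked as an outlier by Dixon's criterion in 6 of the 9 genes. The values there were 9.41 CPM for Ifit1, 22.7 CPM for Ifit3, 9.18 CPM for Irf7, 11.3 CPM for Oasl2, 7.71 CPM for Bst2 and 4.19 CPM for Rsad2. Each gene was checked in the 6 KO and in the 6 WT libraries, 18 groups in all, and none of the 9 WT groups was marked. The nominal rate of such marks, about 1 group in 20, is no measure of chance here, because the genes were chosen with earlier results known. The 9 genes also share their libraries, so the 6 marks are not independent of each other.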

How the results depend on the processing

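The tested members missed the threshold in every comparison and alternative run, except that DESeq2 gave them no adjusted p at CT22 and that 7 of the 8 were tested within the libraries compared at CT10, and over both CT labels every member's log2 change stayed above 0 in every one. The median over both CT labels ran from 0.10 (without KO CT10 replicate 1) to 0.61 with libraries left out in turn, and at CT22 from 0.10 to 0.30. The median for CT22 against CT10 in WT ran from -0.24 to 0.02, above 0 without WT CT10 replicate 2 (4 of 8 above 0). KO CT10 replicate 1 decided the remaining medians: with libraries left out in turn they ran from 0.0935 to 1.06 at CT10, from -0.81 to 0.21 for the difference CT22 minus CT10, and from -0.97 to 0.0751 for CT22 against CT10 in KO, the end nearest to or past 0 being without that library. Directions of single members turned at CT10 for Ifit1 (-0.0637 to 1.26), Ifit3 (-0.0779 to 0.92) and Isg15 (-0.62 to 0.35, and -0.00093 with the replicate block), and at CT22 for Ifit1 (-0.0136 to 0.55), Ifit3 (-0.16 to 0.36), Irf7 (-0.0254 to 0.29) and Rsad2 (-0.43 to 0.0115). The difference for Ifi44 ran from -0.153 to 0.21 CPM, below 0 without KO CT10 replicate 1. No pairing of the libraries by replicate number was seen, but with 3 libraries per group these correlations cannot settle it. The 18 same-number pairs had r from -0.24 to 0.33, 4 of them above 0.1, and 4 of 12 libraries correlated best with their own number. With the replicate block 0 members were called, and the medians were 0.45 over both labels, 0.18 at CT22 and 0.72 at CT10. Counts of called genes over the whole table were small and varied. Over both CT labels 3 genes were called, 22 with DESeq2, 10 without a filter, 1 with the replicate block and 1 to 8 with libraries left out. At CT22 2 were called, 31 with DESeq2, 1 within the libraries compared, 1 with the block and 1 to 4 with libraries left out. At CT10 1 was called, 3 with DESeq2 and 4 within the libraries compared. For CT22 against CT10 in WT 0 were called, 4 with DESeq2, 2 within the libraries compared and 0 to 1 with libraries left out. The cause of these differences was not tested. Low depth limits the rarest members, since Ifi44 and Usp18 had as few as 1 and 4 counts in a library.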

Other observations

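In KO CT10 replicate 1, 25 of the 14131 tested genes exceeded every other library at least 1.5-fold, and the other 11 libraries had 1 to 57 such genes each. The genes named here were chosen after their values were seen. Besides 7 members and Ifit3b, the 25 held Gbp6, a guanylate-binding GTPase, at 5.44 CPM against 3.51 CPM in the next library, Tgtp1, an immunity-related GTPase, at 4.19 CPM against 2.41 CPM, and Nlrc5, a regulator of class I genes, at 3.06 CPM against 1.98 CPM. Dnali1, a dynein chain of cilia, was at 6.23 CPM against 3.59 CPM, and Tmem212, an ependymal marker, at 5.21 CPM against 3.29 CPM. The globin gene Hbb-b2 was at 39.0 CPM against 18.9 CPM.

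Trim25, which ubiquitinates the RNA sensor RIG-I, had the smallest p of the 27 further interferon-stimulated genes tested over both CT labels. It averaged 10.7 ± 1.42 CPM in KO and 7.87 ± 1.41 CPM in WT (SD, n = 6 each), with a log2 change of 0.45 (SE 0.13) and an adjusted p of 0.577 in edgeR's test. In KO CT10 replicate 1 it stood at 10.9 CPM, inside the range of the other libraries, 6.39 to 11.7 CPM. Irf5, a transcription factor of the sensing list, averaged 3.45 ± 0.638 CPM in KO and 4.70 ± 0.738 CPM in WT, with a log2 change of -0.46 (SE 0.17) and an adjusted p of 0.703 in edgeR's test.

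Cd74, the invariant chain of class II antigen presentation, had the smallest p of the antigen presentation list. It averaged 4.68 ± 1.59 CPM in KO and 2.39 ± 0.516 CPM in WT (SD, n = 6 each), with a log2 change of 0.98 (SE 0.23), an unadjusted p of 0.000767 and an adjusted p of 0.336 in edgeR's test. It stood at 7.37 CPM in KO CT10 replicate 1 and at 1.92 to 5.44 CPM in the other 11 libraries. The log2 change of Cd74 was 1.17 at CT10 (SE 0.34). At CT22, where that library plays no part in the group means, it was 0.80 (SE 0.32, edgeR adjusted p = 0.422).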
